A study of Homo sapiens with 6 samples.

Results

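The axon guidance ligands and receptors are the 68 protein-coding genes whose symbols belong to 9 families: 14 Eph receptors, 8 ephrins, 20 semaphorins, 9 plexins, 2 neuropilins, 3 Slits, 4 Robo receptors, 4 netrins and 4 UNC5 receptors. They were chosen by symbol alone, out of 62754 genes in the table, and all 68 were found. Poly(A) RNA was sequenced from HEK293, a human embryonic kidney line that the labels also give as HEK293T, in 3 control libraries and 3 libraries of cells in which FAM60A had been disrupted. FAM60A, whose current symbol is SINHCAF, encodes a subunit of the SIN3/HDAC corepressor, which removes acetyl groups from histones. The disruption was made by CRISPR/Cas9 with several guides against this gene, and the cells were kept as a puromycin-selected pool and not as a clone. The labels call the other group Control without naming a guide or vector, and give no passage or culture date. Nothing in the sources says that the 3 libraries of a group came from separate cultures, so the p-values measure only the spread between these libraries, which may be technical. The comparison asks how the transcript levels of these genes differ in the pool without intact FAM60A. Control replicate 3 stood apart from the other controls and is shown by itself. Over genes of all kinds, the knockout was at least 2-fold from control replicates 1 and 2 in 4412. Control replicate 3 lay nearer the knockout in 58.3% of these and beyond it in a further 10.5%.

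Guidance molecules steer growing axons, migrating cells and sprouting vessels. Ephrins are held in the membrane of one cell and bind Eph receptor tyrosine kinases on its neighbour, so that both cells receive a signal. Semaphorins act through plexins, and the secreted class 3 members mostly need a neuropilin as the subunit that binds them. Slits are secreted and bind Robo receptors, with heparan sulphate proteoglycans as partners, and netrins attract through DCC and neogenin and repel through UNC5 receptors. Kidney epithelium uses several of these systems during development, among them Slit and Robo in the outgrowth of the ureteric bud.

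Each library held between 88361827 and 93346824 counts. The targeted gene, SINHCAF, had 11028, 10165 and 12792 counts over the control replicates and 5684, 5793 and 5449 in the knockout libraries. No knockout library reached the lowest control, and transcripts of the gene remained in the pool. Its level was 117 ± 13.7 CPM (SD, n = 3), the count relative to library size, in the controls and 65.1 ± 3.01 in the knockout, with a log2 fold change of -0.85 (SE 0.11, edgeR adjusted p = 0.00864), and p = 0.1 by an exact permutation test of CPM (two-sided), the lowest value possible for 3 against 3 libraries. All 8 HEK293-associated markers were detected, with a summed level of 1768 and 1807 CPM in control replicates 1 and 2, 1014 in control replicate 3 and 812 to 954 in the knockout, and 2 of them were called lower. The 8 neuron markers summed to 32.2, 28.7 and 17.6 CPM in the controls and 30.6 to 31.8 in the knockout, with 1 called higher and 2 lower of 5 tested. Within them DCX stayed at 6 counts or fewer and STMN2 at 22 or fewer, while SYT1 had 19, 16 and 25 counts across the controls and 1490, 1473 and 1520 across the knockout. The 2 called lower were SNAP25, at 283, 258 and 239 against 52, 60 and 63 counts, and TUBB3, at 84, 84 and 40 against 23, 21 and 19. SYT1 alone made up 17.2 CPM of the knockout sum on average, against 0.207 CPM in the controls. The 5 endothelial markers in the table summed to at most 1.63 CPM, with VWF called lower of 2 tested, and the 5 blood markers to at most 1.74, with 1 tested and not called. The 8 markers associated with MDA-MB-231, the other line of the study, summed to 202.5 and 199.0 CPM in control replicates 1 and 2. Their sum was 140.1 in control replicate 3 and 166.5 to 175.1 in the knockout. Of 7 tested, EGFR and PLAU were called higher and 0 lower, and without control replicate 3 the counts were 3 higher and 3 lower. TGFBI, not called with all libraries, had 392, 403 and 13 counts across the controls and 35, 45 and 46 across the knockout. What part the markers that moved play in the results was not tested, and in bulk RNA fewer cells of a type and less RNA per cell cannot be told apart.

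Of the 68 genes, 65 had enough counts to be tested. Of these, 18 were called at an adjusted p of at most 0.05, which is 27.7% against 16.6% of all 20992 genes tested. In the knockout 8 were higher (12.3%, against 7.96% of all genes) and 10 were lower (15.4%, against 8.67%). With a change of at least 2-fold (an absolute log2 value of 1 or more) as a second condition, 8 remained (12.3%, against 7.06%): EPHA3, EPHA6 and SEMA3E were higher, and EFNB3, EFNA2, EPHB6, EPHA10 and SEMA6B were lower. The split between directions differed between fits. Without TMM factors, a change of scaling alone that shifted the median of all genes by -0.11 on the log2 scale, 6 were higher and 12 lower, against 18.6% of all genes called. DESeq2, which also changes the test, called 16 higher and 13 lower (44.6%, against 26.6%), and limma after quantile normalization, which changes both as well, 13 higher and 10 lower (35.4%, against 17.2%). In 38 of the 65 genes (58.5%, against 41.6% of all genes) the 3 control and 3 knockout libraries did not overlap, with 24 higher and 14 lower. The split by direction over all genes was not taken, so that of the 38 has no background beside it. The median log2 fold change of the 65 genes was 0.066, beside -0.0081 for all genes, and their median absolute log2 fold change was 0.57, beside 0.39.

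**Figure D1:**
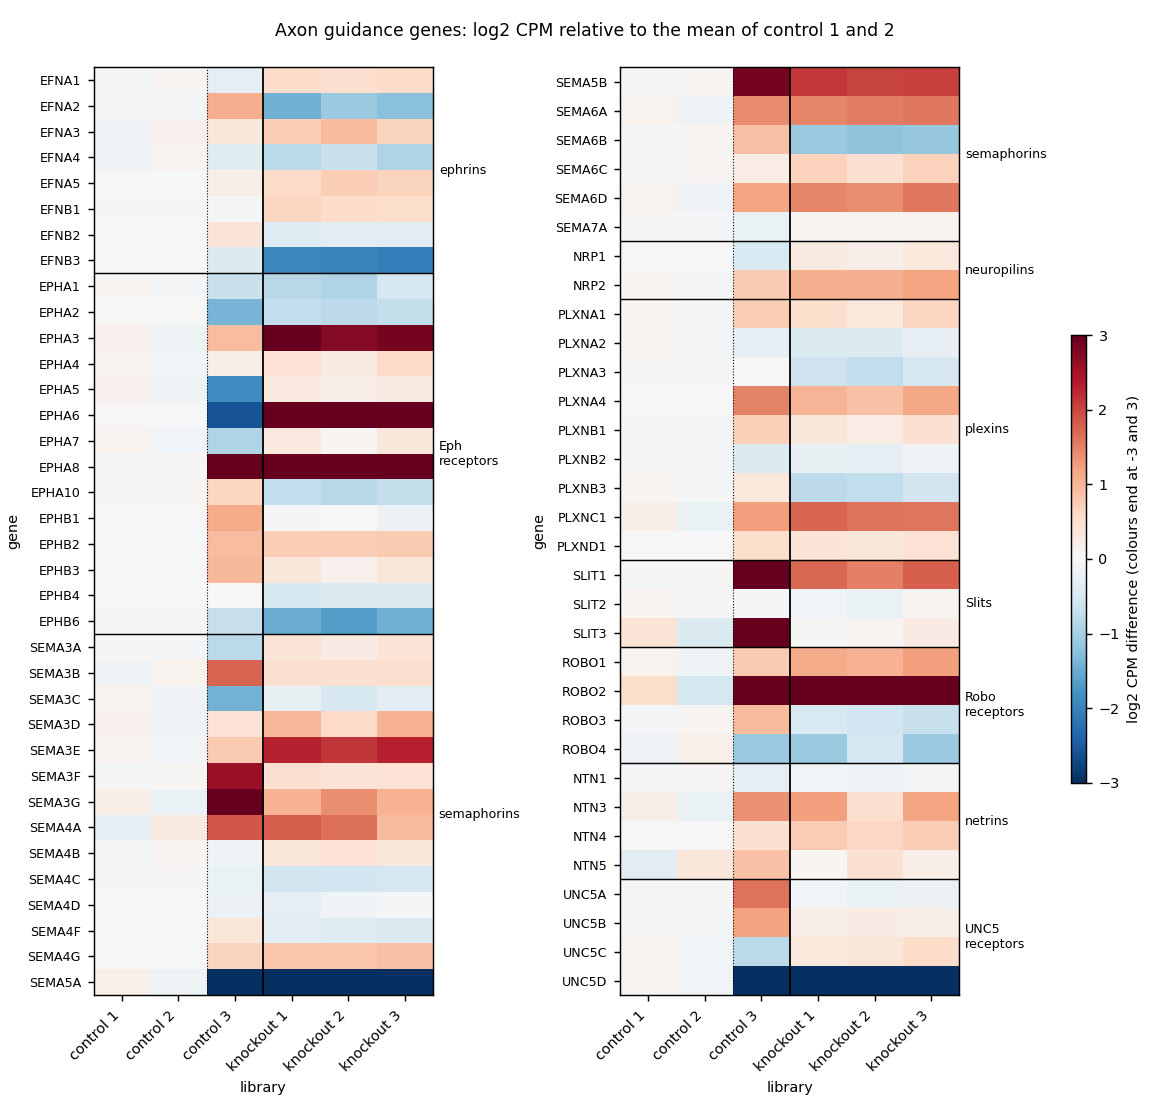
Heat map of all 68 genes (rows, grouped by family) in the 6 libraries (columns), coloured by log2 CPM minus the mean of control replicates 1 and 2, with colours ending at -3 and 3. Control replicates 1 and 2 are near white throughout, the knockout columns resemble each other, and control replicate 3 has its own pattern, dark red with the knockout for ROBO2 and EPHA8 and dark blue with it for SEMA5A and UNC5D, but opposite to it for EPHA6.

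Most of these calls were lost when a library other than control replicate 3 was left out, as were most calls over all genes. The share of all genes called was then 0.763% to 4.89%, and 65.6% without control replicate 3, against 16.6% with all 6 libraries. The EFNB3 call held whichever library was left out. EPHA3 and SEMA3E kept theirs without any 1 control or without knockout replicate 2, and lost them without knockout replicate 1 or 3. SEMA6B kept its call without any 1 control and lost it without any 1 knockout library, and EFNB1 kept its call without control replicate 2 or 3. The other 13 kept their calls only without control replicate 3.

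Promoter sequence is shown for the called genes with the largest rise or fall in their family, where the RefSeq promoter table (GRCh38.p14, 250 bases before to 50 after the start) held an entry. The table held 58 of the 68 genes. EFNB3 and SEMA6B had no entry. Capitals mark matches on either strand to GGAATG (the TEAD motif), GGGCGG (the GC box), CACGTG (the E-box) or TATAAA (the TATA box).
EFNA1, the called ephrin with the largest rise over all 6 libraries, is shown first.
EFNA1, chr1:155127626-155127925, plus strand: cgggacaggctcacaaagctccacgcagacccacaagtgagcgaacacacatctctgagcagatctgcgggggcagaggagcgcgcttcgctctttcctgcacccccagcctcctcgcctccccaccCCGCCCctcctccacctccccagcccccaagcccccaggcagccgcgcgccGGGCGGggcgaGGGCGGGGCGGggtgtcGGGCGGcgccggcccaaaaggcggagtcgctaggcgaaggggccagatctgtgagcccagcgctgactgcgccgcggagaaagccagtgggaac
EPHA6, chr3:96814344-96814643, plus strand: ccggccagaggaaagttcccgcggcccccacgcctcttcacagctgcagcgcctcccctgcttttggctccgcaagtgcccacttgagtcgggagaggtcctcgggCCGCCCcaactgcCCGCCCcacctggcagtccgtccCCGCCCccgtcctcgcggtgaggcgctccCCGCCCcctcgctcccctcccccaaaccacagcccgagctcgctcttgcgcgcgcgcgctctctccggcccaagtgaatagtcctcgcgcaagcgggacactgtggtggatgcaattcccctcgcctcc
EPHB6, chr7:142862506-142862805, plus strand: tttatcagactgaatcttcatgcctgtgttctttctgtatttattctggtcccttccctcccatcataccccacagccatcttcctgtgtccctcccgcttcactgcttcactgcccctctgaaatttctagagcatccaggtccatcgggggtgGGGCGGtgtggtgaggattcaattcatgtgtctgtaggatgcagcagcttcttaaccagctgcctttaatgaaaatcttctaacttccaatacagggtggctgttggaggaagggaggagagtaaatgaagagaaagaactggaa
SEMA3E, chr7:83649090-83649389, minus strand: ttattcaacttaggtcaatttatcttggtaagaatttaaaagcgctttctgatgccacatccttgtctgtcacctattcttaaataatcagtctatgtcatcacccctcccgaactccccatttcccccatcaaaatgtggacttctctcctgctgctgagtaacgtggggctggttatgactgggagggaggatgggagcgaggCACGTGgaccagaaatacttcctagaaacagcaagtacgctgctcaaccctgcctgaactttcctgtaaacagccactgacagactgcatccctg
PLXNB3, chrX:153763999-153764298, plus strand: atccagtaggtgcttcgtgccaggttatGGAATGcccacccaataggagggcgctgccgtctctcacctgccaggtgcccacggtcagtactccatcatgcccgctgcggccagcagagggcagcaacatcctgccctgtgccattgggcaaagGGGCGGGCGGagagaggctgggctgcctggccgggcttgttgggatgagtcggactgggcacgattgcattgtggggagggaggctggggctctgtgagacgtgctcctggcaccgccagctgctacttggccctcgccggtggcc
EPHA6 and SEMA3E rose, and EPHB6 and PLXNB3 fell. The EPHB6 window surrounds a start 7680 bases inside the gene, whereas the other windows shown lie at the gene's 5′ end, as did 44 of the 58 within 50 bases. The windows of EFNA1 and EPHA6 held 5 and 4 GC boxes and had 71.7% and 71.0% G or C, whereas that of SEMA3E had 47.3%, no GC box and 1 E-box, so the rising genes did not share one composition. EPHB6 had 48.0% G or C with 1 GC box, and PLXNB3 had 65.7% with 2 GC boxes and 1 TEAD motif. Over the 58 windows, 45 held a GC box (77.6%, against 44.95% of all 35116 promoters), 5 a TEAD motif (8.62%, against 14.03%), 4 an E-box (6.9%, against 7.256%) and 1 a TATA box (1.72%, against 11.5%). The median G or C content was 66.2% in these windows and 58.7% in all promoters. The 58 windows are 1 per protein-coding gene. The 35116 promoters were limited neither to 1 per gene nor to protein-coding genes, so the 2 sets are unlike. These matches describe the letters in the window and are not binding sites.

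Among the 8 ephrins, 3 were called higher by edgeR (EFNA1, EFNA5 and EFNB1), 2 lower (EFNA2 and EFNB3) and 3 were not called. All 8 had an unadjusted p below 0.05, and DESeq2 called 8 and limma 6. EFNB3, a transmembrane ephrin known as a repellent barrier at the spinal cord midline (chr17:7705202-7711372, GRCh38), had 3786, 3823 and 2864 counts in the 3 controls, and in the knockout it had 872, 875 and 838. Every knockout library lay far below every control, and this gene had the smallest adjusted p of all 65. The level fell from 36.1 ± 5.63 to 9.94 ± 0.433 CPM (SD, n = 3 each), 3.63-fold, with a log2 fold change of -1.86 (SE 0.15, edgeR adjusted p = 0.00277, at most 0.0437 in any alternative). EFNA2, a lipid-anchored ephrin of retinal map formation, had 81, 76 and 168 counts in the control libraries and 24, 32 and 29 in the knockout. Its highest value was control replicate 3, so that the log2 fold change of -1.78 (SE 0.37, edgeR adjusted p = 0.0265) became -1.34 (SE 0.22) without that library.

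The 3 ephrins that rose did so by similar amounts. EFNB1, the X-linked ephrin mutated in craniofrontonasal syndrome, had 6416, 6625 and 6237 counts across the controls and 8845, 8624 and 8531 across the knockout, a log2 fold change of 0.59 (SE 0.08, edgeR adjusted p = 0.0101). EFNA5, a high-affinity ligand of EPHA3, had 3091, 3022 and 3425 against 3948, 4645 and 4412 counts, a log2 fold change of 0.60 (SE 0.10, edgeR adjusted p = 0.0144). EFNA1, a ligand of EPHA2, had 1451, 1533 and 1236 against 1905, 1928 and 1992 counts, a log2 fold change of 0.62 (SE 0.12, edgeR adjusted p = 0.0230). In all 3 the groups did not overlap, and control replicate 3 sat with the other controls. EFNB2, the arterial ephrin that binds EPHB4, missed the threshold in edgeR at -0.49 (SE 0.13, edgeR adjusted p = 0.0513) and was called by DESeq2. EFNA3 and EFNA4 lie side by side on chromosome 1 and had log2 fold changes of 0.67 (SE 0.18, edgeR adjusted p = 0.0538) and -0.68 (SE 0.19, edgeR adjusted p = 0.0558), but 43.9% of the EFNA3 and 15.0% of the EFNA4 exon length are shared with a readthrough gene of both on the same strand, so how the counting divided reads between them is uncertain. In EFNB2, 36.4% of the exon length overlaps a gene on the opposite strand. The family's summed level was 209 to 216 CPM in the controls and 226 to 234 in the knockout.

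Among the 14 Eph receptors, EPHA3 and EPHA6 were called higher, EPHB4, EPHB6 and EPHA10 lower, and 9 were not called. EPHA3, a receptor for A-type ephrins (chr3:89107621-89482134, GRCh38), had 753, 620 and 1310 counts in the 3 controls, and in the knockout it had 4732, 4197 and 4564. The lowest knockout library was well above control replicate 3, the highest control. The level rose from 9.25 ± 3.79 to 51.9 ± 4.18 CPM, 5.61-fold, with a log2 fold change of 2.49 (SE 0.29, edgeR adjusted p = 0.00659) and of 2.84 (SE 0.10) without control replicate 3. EPHA6, another A-type receptor (chr3:96814594-97761532, GRCh38), had 226, 227 and 36 counts in the control libraries and 1688, 1686 and 1759 in the knockout. Here control replicate 3 was the lowest library, on the far side of the other controls from the knockout. Its log2 fold change was 3.55 (SE 0.66, edgeR adjusted p = 0.0197), the largest among the 65 tested genes, and 3.04 (SE 0.10), or 8.23-fold, without that library. Of the EPHA6 exon length, 11.0% is shared with another gene on the same strand.

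The receptors that fell include both family members known to lack kinase activity. EPHB6, one of them (chr7:142855076-142871093, GRCh38), had 1189, 1242 and 749 counts across the controls and 376, 349 and 409 across the knockout, a 2.52-fold fall with a log2 fold change of -1.33 (SE 0.23, edgeR adjusted p = 0.0166). EPHA10, the other, had 844, 862 and 1340 counts against 447, 434 and 471, with a log2 fold change of -1.02 (SE 0.22, edgeR adjusted p = 0.0299) that became -0.80 (SE 0.10) without control replicate 3. EPHB4, the venous partner of EFNB2, had 9704, 9574 and 9587 counts in the 3 controls, and in the knockout it had 6019, 6539 and 6523. Its 3 controls were nearly level, control replicate 3 included, and the log2 fold change was -0.44 (SE 0.08, edgeR adjusted p = 0.0160). EPHA2, a receptor for EFNA1 in epithelia and the family's most abundant member per length by the mean of all libraries, though below EPHB4 in control replicate 3, had 12543, 12693 and 4827 counts against 6638, 6607 and 6993. The knockout lay between control replicate 3 and the other controls, and the log2 fold change was -0.42 (SE 0.35, edgeR adjusted p = 0.441) with all libraries and -0.78 (SE 0.07), past the threshold, without that one. EPHA8 had 43, 44 and 1292 counts in the control libraries and 312, 379 and 352 in the knockout. Control replicate 3 exceeded the knockout, so the log2 fold change of -0.25 (SE 1.26, edgeR adjusted p = 0.907) turned to 3.12 (SE 0.16), past the threshold, without it. The log2 fold changes of the 7 other receptors that were not called lay between -0.57 (SE 0.26) for EPHA1 and 0.65 (SE 0.47) for EPHA5.

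**Figure D2:**
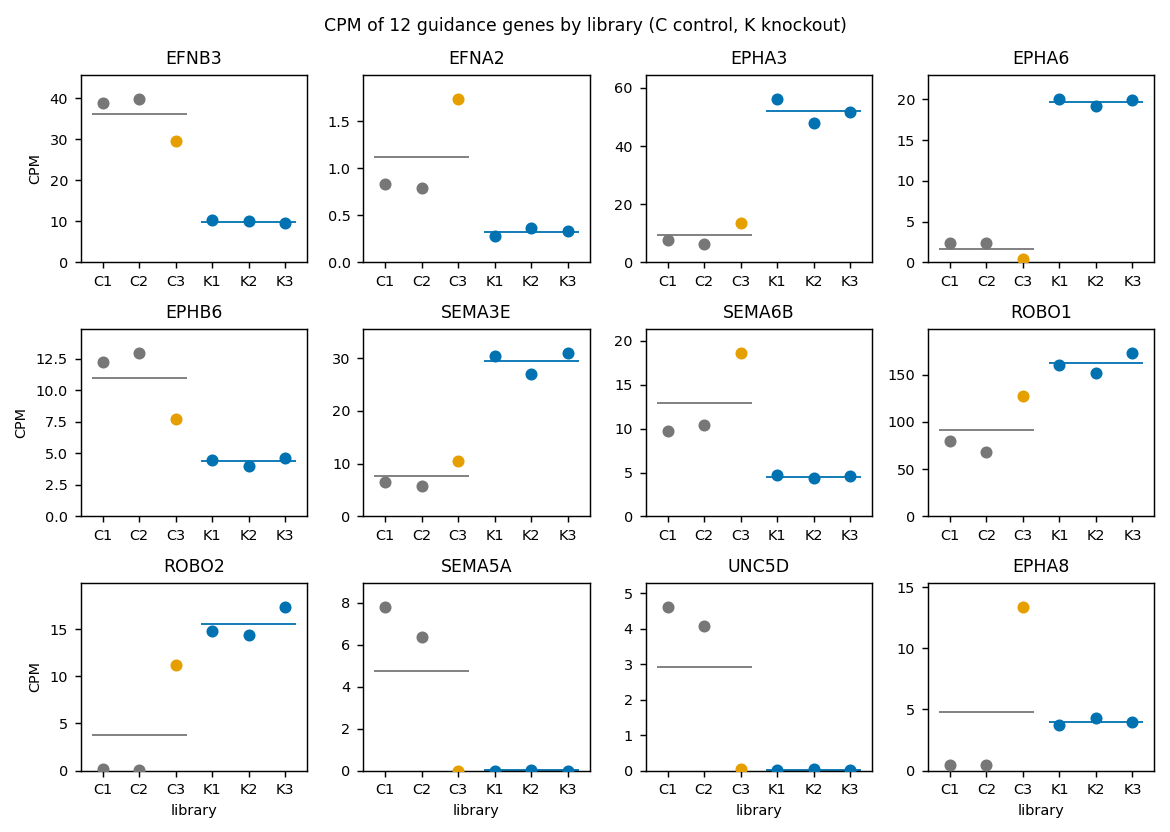
CPM of 12 genes in each library, with grey points for control replicates 1 and 2, orange for control replicate 3, blue for the knockout and lines at the mean of each group of 3; every panel starts at 0 and has its own scale. EFNB3, EPHA3, SEMA3E and SEMA6B separate the groups in every library, whereas in ROBO2, SEMA5A and UNC5D control replicate 3 lies with the knockout and in EPHA8 above it.

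Among the 20 semaphorins, 19 were tested, 3 of which were called higher by edgeR (SEMA3E, SEMA4B and SEMA6C) and 3 lower (SEMA4C, SEMA4F and SEMA6B). Of the 19, 10 had an unadjusted p below 0.05, and DESeq2 called 9 and limma 6. SEMA3E, a secreted semaphorin that binds PLXND1 directly without a neuropilin (chr7:83363238-83649139, GRCh38), had 633, 553 and 1014 counts across the controls and 2561, 2372 and 2731 across the knockout. The groups were well apart, with control replicate 3 the nearest control. The level rose from 7.59 ± 2.55 to 29.5 ± 2.11 CPM, 3.88-fold, with a log2 fold change of 1.96 (SE 0.25, edgeR adjusted p = 0.00792). SEMA6B, a transmembrane ligand of class A plexins (chr19:4542593-4559684, GRCh38), had 946, 1006 and 1798 counts against 393, 380 and 404. Control replicate 3 was again the farthest from the knockout, and the log2 fold change of -1.52 (SE 0.28, edgeR adjusted p = 0.0193) was -1.19 (SE 0.10) without it.

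The other 4 called semaphorins, of classes 4 and 6, changed less. SEMA4C, a ligand of PLXNB2, had 4039, 4170 and 3546 counts in the 3 controls, and in the knockout it had 2447, 2506 and 2644, a log2 fold change of -0.47 (SE 0.10, edgeR adjusted p = 0.0275). SEMA4F had 3526, 3565 and 4532 against 2433, 2443 and 2394 counts, a log2 fold change of -0.52 (SE 0.13, edgeR adjusted p = 0.0398). SEMA4B had 2421, 2597 and 2324 against 2793, 3077 and 2923, a log2 fold change of 0.42 (SE 0.10, edgeR adjusted p = 0.0343). SEMA6C had 1284, 1389 and 1566 against 1878, 1665 and 1964, a log2 fold change of 0.53 (SE 0.13, edgeR adjusted p = 0.0426). The class 4 and class 6 semaphorins thus moved in both directions, and each of these 4 calls was lost when any library but control replicate 3 was left out.

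Several transmembrane semaphorins stood higher in the knockout and in control replicate 3 than in control replicates 1 and 2. SEMA6A, a ligand of PLXNA2 and PLXNA4, had 1861, 1597 and 4634 counts in the control libraries and 4176, 4568 and 4756 in the knockout, with a log2 fold change of 0.89 (SE 0.40, edgeR adjusted p = 0.171) from all libraries and 1.504 (SE 0.09) without control replicate 3. SEMA6D, a ligand of PLXNA1, had 461, 399 and 978 against 1028, 1019 and 1184 counts, with 0.97 (SE 0.35, edgeR adjusted p = 0.109) and 1.45 (SE 0.10). SEMA5B had 104, 111 and 795 against 415, 404 and 416 counts, with 0.45 (SE 0.80, edgeR adjusted p = 0.727) and 2.06 (SE 0.13). In SEMA6A and SEMA6D control replicate 3 came close to the knockout and in SEMA5B it went beyond, and with edgeR all 3 passed the threshold only without it. SEMA6D was also called with all 6 libraries by DESeq2 (adjusted p = 0.0349) and limma (adjusted p = 0.0477). SEMA4A, at 14, 21 and 68 counts against 56, 53 and 32, and the secreted SEMA3G, at 58, 43 and 557 against 91, 123 and 96, followed suit at low counts, with log2 fold changes without control replicate 3 of 1.54 (SE 0.32) and 1.16 (SE 0.21). For SEMA3G the sign was opposite with all libraries, at -0.93 (SE 0.96, edgeR adjusted p = 0.531). The 8 semaphorins not yet named that were tested and not called lay between -0.96 (SE 0.72) for SEMA3F, which had 336, 345 and 2044 counts across the controls and 424, 409 and 424 across the knockout, and 0.73 (SE 0.21) for SEMA3D. Among them SEMA4G overlaps genes on the opposite strand over 28.0% of its exon length.

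SEMA5A, a transmembrane semaphorin with thrombospondin repeats (chr5:9035033-9546075, GRCh38), had 757 and 614 counts in control replicates 1 and 2, 0 in control replicate 3 and 0, 4 and 0 in the knockout. It was all but absent from 4 of the 6 libraries, and since only 2 libraries exceeded the count filter it was not tested in the main fit with all 6. Against control replicates 1 and 2 the ratio was 462-fold, with an exact 95% interval of 180 to 1700 that covers counting error only. Against all 3 controls the ratio was 308-fold (120 to 1130), all of it from control replicates 1 and 2. Without control replicate 3 it could be fitted, but it reached the count minimum only in the controls, where it is high, so that fit is no test of it.

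The median absolute log2 fold change was 0.27 in the 9 plexins, the receptors of the semaphorins, 0.57 in the 19 semaphorins tested and 0.39 in all genes. Without control replicate 3 it was 0.47 in the plexins, 0.70 in the semaphorins, then 20, and 0.50 in all genes. With all libraries edgeR called PLXNA3 and PLXNB3 lower and no plexin higher. In either direction 3 plexins had an unadjusted p below 0.05, and DESeq2 and limma each called 3. PLXNA3, which transmits SEMA3F signals together with NRP2, had 3620, 3379 and 3498 counts in the 3 controls, and in the knockout it had 1992, 1898 and 2280. Control replicate 3 lay between the other controls, and the log2 fold change was -0.61 (SE 0.10, edgeR adjusted p = 0.0159). PLXNB3, a receptor of SEMA5A, had only 66, 59 and 78 against 31, 33 and 38 counts, a log2 fold change of -0.84 (SE 0.21, edgeR adjusted p = 0.0436), and it shares 20.4% of its exon length with SRPK3 on the same strand. PLXNB2, the most abundant gene of all 68 per length, had 28530, 27228 and 20991 counts against 20840, 20636 and 23524, with a log2 fold change of -0.08 (SE 0.14, edgeR adjusted p = 0.699). Without control replicate 3 the PLXNB2 value was -0.24 (SE 0.08), past the threshold. PLXNC1, the receptor of SEMA7A, had 310, 230 and 639 counts in the control libraries and 790, 752 and 748 in the knockout. All knockout libraries lay above all controls, yet the log2 fold change of 1.12 (SE 0.38, edgeR adjusted p = 0.0932) passed the threshold in edgeR only without control replicate 3, at 1.63 (SE 0.12). With all 6 libraries it was called by DESeq2 (adjusted p = 0.0206) and limma (adjusted p = 0.0374). The other 5 plexins lay between -0.27 (SE 0.12) for PLXNA2 and 0.35 (SE 0.43) for PLXNA4.

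Neither neuropilin was called by edgeR with all libraries, although both had an unadjusted p below 0.05 and both had groups that did not overlap, and DESeq2 and limma each called 1, NRP2 (adjusted p = 0.0134 and 0.0485). NRP2, the subunit that prefers SEMA3F, had 2317, 2143 and 3860 counts across the controls and 4071, 4256 and 4643 across the knockout, with a log2 fold change of 0.80 (SE 0.23, edgeR adjusted p = 0.0634). NRP1, the subunit that prefers SEMA3A and the more abundant of the pair per length, had 6100, 5962 and 4425 against 6288, 6329 and 6819 counts, with 0.39 (SE 0.14, edgeR adjusted p = 0.102). Leaving out control replicate 3 took both past the threshold, at 1.08 (SE 0.08) and 0.23 (SE 0.07). The summed neuropilin level was 84.4 to 86.6 CPM in the 3 controls, where NRP1 was lower and NRP2 higher in control replicate 3, and 121 to 130 CPM in the knockout.

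No Slit and no Robo receptor was called by edgeR with all libraries. The 3 Slits had no unadjusted p below 0.05 and no call by DESeq2 or limma, whereas of the 3 Robo receptors tested 2 had such a p, DESeq2 called 2 and limma 1. SLIT2, the main Slit in these cells per length, had 14557, 13248 and 13534 counts in the 3 controls, and in the knockout it had 11358, 10930 and 13498, with a log2 fold change of -0.05 (SE 0.11, edgeR adjusted p = 0.754). SLIT1 had 191, 200 and 1984 against 566, 513 and 626 counts. The knockout lay between control replicates 1 and 2 and control replicate 3, and the log2 fold change of -0.32 (SE 0.91, edgeR adjusted p = 0.830) became 1.66 (SE 0.12), past the threshold, without the latter. SLIT3, at 77, 42 and 610 counts against 51, 55 and 62, was high in control replicate 3 alone.

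ROBO1, the most abundant Robo receptor per length, had 7780, 6587 and 12261 counts in the control libraries and 13518, 13353 and 15249 in the knockout. Control replicate 3 came near the knockout without reaching it, and the log2 fold change was 0.82 (SE 0.23, edgeR adjusted p = 0.0589), called by DESeq2 (adjusted p = 0.0106) and not by limma (adjusted p = 0.0605). ROBO2, which is needed for a single ureteric bud to form in the kidney, had 19 and 8 counts in control replicates 1 and 2, 1081 in control replicate 3 and 1252, 1263 and 1531 in the knockout. It was close to silent in 2 libraries and expressed in 4, so the log2 fold change of 2.02 had an SE of 1.56 (edgeR adjusted p = 0.398). Without control replicate 3 the values were 1.09 (SE 0.09) for ROBO1, past the threshold, and 6.75 (SE 0.20), or 108-fold, for ROBO2, which reached the count minimum only in the knockout, where it is high. ROBO3, which lets commissural axons cross the midline, had 688, 745 and 1380 against 453, 433 and 411 counts, with a log2 fold change of -0.96 (SE 0.30, edgeR adjusted p = 0.0728). Both DESeq2 and limma called ROBO3 lower. ROBO4, the endothelial member, had at most 3 counts in any library and was not tested. Summed over the family the level was 87.3 and 76.4 CPM in control replicates 1 and 2, 152 in control replicate 3 and 172 to 195 in the knockout.

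No netrin and no UNC5 receptor was called by edgeR with all libraries. Of the 4 netrins 1 had an unadjusted p below 0.05, and DESeq2 and limma called 1 each. Of the 3 UNC5 receptors tested 1 had such a p, and DESeq2 and limma called none. NTN1, the classical floor plate attractant and by far the main netrin here per length, had 9583, 9808 and 8055 counts across the controls and 8028, 8020 and 8558 across the knockout, with a log2 fold change of -0.0021 (SE 0.10, edgeR adjusted p = 0.991). NTN4, the laminin-binding netrin of basement membranes, had 963, 961 and 1313 against 1421, 1345 and 1476 counts, with 0.55 (SE 0.17, edgeR adjusted p = 0.0699). NTN4 was the netrin that DESeq2 and limma called. NTN3 had 47, 35 and 109 against 86, 53 and 87 counts, with 0.40 (SE 0.47, edgeR adjusted p = 0.581) and 1.002 (SE 0.25), past the threshold, without control replicate 3. UNC5B, the vascular netrin receptor and the most abundant UNC5 gene per length, had 3020, 2869 and 6754 counts in the 3 controls, and in the knockout it had 2931, 3149 and 3037. Control replicate 3 alone stood apart, and the log2 fold change was -0.32 (SE 0.34, edgeR adjusted p = 0.544). UNC5A and UNC5C, which were not called, had log2 fold changes of -0.92 (SE 0.48) and 0.64 (SE 0.24), and NTN5 had 10 to 26 counts per library. UNC5D had 448 and 393 counts in control replicates 1 and 2, 4 in control replicate 3 and 2, 3 and 2 in the knockout. Like SEMA5A it was nearly absent from 4 libraries and was not tested in the main fit with all 6. Against control replicates 1 and 2 the ratio was 162-fold, with an exact 95% interval of 78.2 to 404, and against all 3 controls it was 108-fold (52.4 to 270). In the fit without control replicate 3 it too reached the count minimum only in the controls.

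**Figure D3:**
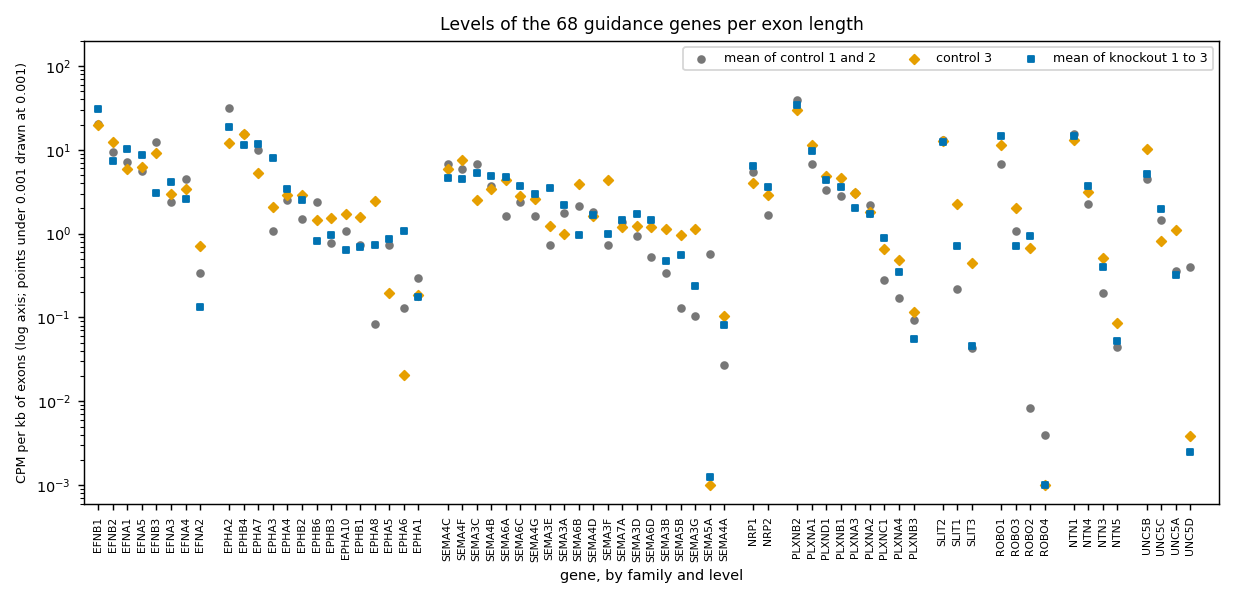
CPM per kilobase of exons on a log axis for the 68 genes, ordered by level within each family, with the mean of control replicates 1 and 2 in grey, control replicate 3 in orange and the mean of the knockout in blue. PLXNB2, EFNB1 and EPHA2 are the highest, and the widest gaps between the symbols are in ROBO2, SEMA5A and UNC5D.

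Levels of different genes were compared per kilobase of exons. On that scale PLXNB2 led with a mean of 35.4 CPM per kilobase over all libraries, ahead of EFNB1 with 25.2, EPHA2 with 21.9, NTN1 with 14.8, EPHB4 with 13.4 and SLIT2 with 12.7. ROBO1 led the Robo receptors with 11.5, UNC5B the UNC5 receptors with 5.75, and NRP1 the neuropilins with 5.71. The order of the semaphorins changed between groups. SEMA4C had the highest mean over all libraries at 5.57 CPM per kilobase and led in control replicates 1 and 2 with 6.78, just above SEMA3C with 6.77, whereas SEMA4F led in control replicate 3 with 7.53 and SEMA3C in the knockout with 5.32, where SEMA4C had 4.66. Among the Eph receptors EPHA2 led in control replicates 1 and 2 and in the knockout, and EPHB4, at 15.4 against 12.1, in control replicate 3. At the mean of the knockout, EPHA3 rose to 7.89 CPM per kilobase from 1.08 in control replicates 1 and 2, and EFNB3 fell to 3.09 from 12.2. EPHA6 reached 1.08 CPM per kilobase in the knockout, so the gene with the largest log2 fold change stayed well below EPHA2, at 18.8, and EPHA7, at 11.7.

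The partners and effectors of these pathways comprised 79 further genes in 6 lists, of which 78 were in the table and 74 were tested. In the knockout 6 were higher and 8 lower, or 18.9%, near the 16.6% of all genes. By list, 1 higher and 2 lower of 10 were other netrin receptors and their relatives, 1 and 1 of 6 semaphorin coreceptors, 1 and 2 of 15 semaphorin effectors, 2 and 1 of 13 Slit and Robo effectors, and 1 and 2 of 17 Eph effectors. None of 13 cytoskeletal effectors was called by edgeR, with 4 at an unadjusted p below 0.05, 1 called by DESeq2 and 0 by limma. The 4 past 2-fold were FLRT2, NTNG1, SDC4 and ENAH. FLRT2, a membrane protein that binds UNC5D, had 3126, 2812 and 88 counts in the control libraries and 15, 13 and 18 in the knockout, a log2 fold change of -6.87 (SE 1.35, edgeR adjusted p = 0.0227). As with UNC5D, control replicate 3 lay far below the other controls. SDC4, a heparan sulphate proteoglycan, had 3450, 3263 and 2979 against 8643, 8959 and 9053 counts, a log2 fold change of 1.62 (SE 0.09, edgeR adjusted p = 0.00134) with control replicate 3 the lowest library. ENAH, an actin regulator whose fly homologue binds Robo, had 36187, 31256 and 18972 against 12075, 13077 and 12544 counts, a log2 fold change of -1.04 (SE 0.23, edgeR adjusted p = 0.0309). NTNG1, a lipid-anchored relative of netrins, had 9, 6 and 5 against 24, 23 and 23 counts, a log2 fold change of 1.94 (SE 0.31, edgeR adjusted p = 0.0137) at very low counts. It reached the count minimum only in the knockout, where it is high, so that fit is no test of it. The 6 higher genes and the 4 past 2-fold include it. SDC4 kept its call whichever library was left out, NTNG1 without control replicate 1 or 3, and FLRT2 and ENAH only without control replicate 3. DCC, the attractive netrin receptor, had at most 4 counts in any library, and its relative NEO1 had 11377 to 12517 counts in the controls and 10002 to 11313 in the knockout, with a log2 fold change of -0.02 (SE 0.09).

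Control replicate 3 differed from the other controls in the guidance genes by a larger median than the knockout did, though it is 1 library beside a mean of 3. The medians below are for the guidance genes alone, without the same values over all genes. The median absolute log2 difference over the 65 tested genes was 0.10 between control replicates 1 and 2, 0.78 between control replicate 3 and their mean, and 0.61 between the knockout and their mean. In 22 of the 65 genes (33.8%, against 19.6% of all genes) control replicate 3 was at least 2-fold from both other controls, 18 times above and 4 times below. How all genes divided between above and below was not taken. Control replicates 1 and 2 differed by 2-fold or more in 1 gene, ROBO2, with its 19 and 8 counts. In 19 tested genes the knockout was at least 2-fold from control replicates 1 and 2. Control replicate 3 lay on the far side of the controls in 3 of them (EFNA2, EPHA6 and SEMA6B), between but nearer the other controls in 4 (EFNB3, EPHA3, SEMA3E and EPHB6), within 0.5 of the control-to-knockout log2 distance of the knockout in 9, of which SEMA4A, SEMA5B and PLXNA4 were past it, and farther beyond the knockout in 3 (EPHA8, SLIT1 and SEMA3G). As shares these were 15.8%, 21.1%, 47.4% and 15.8%, beside 9.5%, 21.6%, 58.3% and 10.5% of 4412 genes of all kinds. The 7 genes of the first 2 classes were all among the called genes. Those classes place control replicate 3 on the side of the other controls, which favours a call, so this is no separate support. The share called among genes of all kinds in these classes was not taken.

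Without control replicate 3, 67 of the genes could be tested and 55 were called (82.1%, against 65.6% of all genes), all 18 calls of the full fit among them. There were 35 higher (52.2%, against 32.4%) and 20 lower (29.9%, against 33.2%). By 2-fold or more 21 were called (31.3%, against 22.9%), 15 of them higher, ROBO2 included. The direction of the 2-fold calls over all genes was not taken. Of the called genes ROBO2, SEMA5A and UNC5D reached the count minimum in 1 group only, as did NTN5, which was not called, and of the other 63 genes tested 34 were higher and 18 lower (82.5% called). The median log2 fold change of the guidance genes was 0.32, beside -0.0024 for all genes. By family, 13 semaphorins were higher and 5 lower, SEMA5A included, 5 Eph receptors each way, 5 plexins higher and 4 lower, and 4 ephrins each way. Of the 65 genes tested both ways, 9 had the opposite sign without control replicate 3. In the partner and effector lists 27 were higher and 31 lower of 75, among them DSCAM, DSCAML1 and NTNG1, which reached the minimum in 1 group only.

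**Figure D4:**
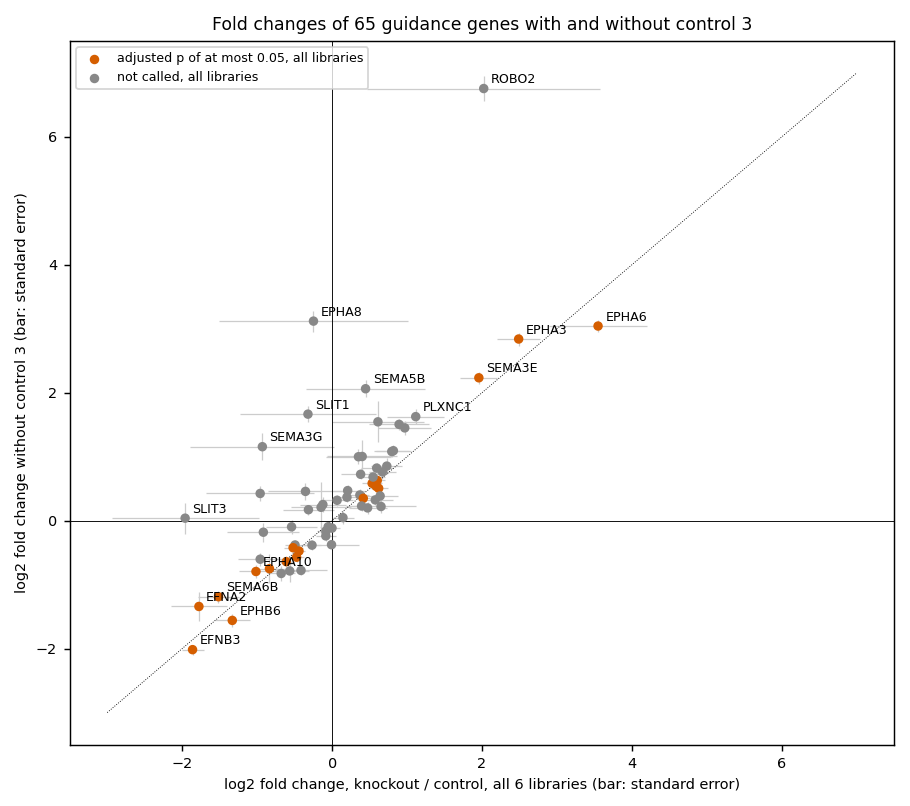
Log2 fold change of the 65 tested genes with all 6 libraries (horizontal axis) and without control replicate 3 (vertical axis), with standard errors as bars, calls of the full fit in orange and equality as a dotted line. The called genes lie along the line, and ROBO2, EPHA8, SEMA5B, SLIT1, SLIT3 and SEMA3G lie far above it with wide horizontal bars.

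ROBO2, ROBO1, EPHA3 and EPHA6 lie on chromosome 3 between 75906675 and 97761532 (GRCh38), a grouping that was noticed after their values were seen. All 4 had positive log2 fold changes, and 2 of them were called. The 10 other protein-coding genes tested in that interval had a median log2 fold change of -0.00046, and edgeR called none of them with all libraries, with 2 at an unadjusted p below 0.05, 2 called by DESeq2, 0 by limma and 3 by edgeR without control replicate 3. VGLL3, a TEAD cofactor gene, had the lowest value there at -0.77 (edgeR adjusted p = 0.111) and ZNF654 the highest at 0.51 (edgeR adjusted p = 0.0564). The difference between the guidance genes of the interval and their neighbours was not tested.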

How the data were processed

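Whole-number counts per gene were deposited for 6 poly(A) RNA libraries as one table, with no column of another sample. The authors' processing notes name STAR 2.7.10b, featureCounts 2.0.0 and hg38, their methods name Trimmomatic, Salmon and hg38, and the extract protocol names hg19; the annotation release and the strand setting of the counting were not given in the sources used here. Shared exon lengths, where the counting could divide reads between overlapping genes, were taken from GENCODE gene models. Of 62754 gene IDs, 60878 matched a symbol, and gene positions came from RefSeq (GRCh38).

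Knockout was compared with control by edgeR's two-sided quasi-likelihood test (edgeR 4.0.16, R 4.3.3) with TMM scaling, a minimum count of 10 (filterByExpr) and Benjamini-Hochberg adjustment over 20992 genes. A call is an adjusted p of at most 0.05. The standard error is the log2 fold change divided by the square root of F. CPM used TMM-scaled library sizes, log2 CPM a prior count of 2, and levels between genes CPM per kilobase of merged exons. Alternatives were DESeq2 1.42.0, limma-voom 3.58.1 with quantile normalization (the study used limma), no TMM, other filters, a replicate block and leaving out each library. The fit was also run on simulated counts with 1 dispersion for all genes and no library set apart. That run does not show how the fit behaves with control replicate 3. The families and the gene lists were chosen with earlier results of these data known, and are no independent support for any direction.

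Genes named with full values are the called ones, those of 2-fold or more that passed in edgeR only without control replicate 3, the member of each family with the highest level per length, partners called at 2-fold or more, and SINHCAF; others are named for what a count or range refers to, after their values were seen. Depth of 88361827 to 93346824 counts per library leaves counting error small except for genes under about 100 counts, and the spread between 3 libraries sets the precision.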

Additional observations from a re-analysis of the deposited data

How the results depend on the processing

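Of the 18 calls among the guidance genes, 16 were kept without TMM factors, where 18 were called in all, 13 with no filter, where 15 were called, and 18 with at least 10 counts in every library. The calls added with no filter were SEMA5A and UNC5D, both nearly absent from control replicate 3 and the knockout. DESeq2 called 29 (44.6%, against 26.6% of all genes) and kept the 18, and limma called 23 (35.4%, against 17.2%) and kept 17. Higher calls were 16 with DESeq2 and 13 with limma, against 8. Leaving out each library in turn gave 1 to 55 calls, 0 to 35 higher, 1 to 20 lower and 1 to 21 of at least 2-fold, and 1 to 58 partners and effectors, with the highest number each time without control replicate 3. The calls over all genes moved alike, from 167 to 14221, or 0.763% to 65.6% of the genes tested. No guidance gene was called higher by edgeR without knockout replicate 1 or without knockout replicate 3, though 12 had a positive change at an unadjusted p below 0.05 in each. Without a filter 8 partners and effectors were called, against 14. Leaving out 1 library, SINHCAF lay between -0.92 and -0.78 on the log2 scale and missed the threshold without any 1 knockout library. The cause was not tested.

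The correlations of same-numbered deviations from the group means were 0.0101, 0.0306 and -0.0362, and those of differently numbered libraries lay between -0.0841 and 0.0771. Since control replicate 3 sets most of the control deviations, these values cannot show whether the replicate numbers pair the libraries. With the replicate block, 3 guidance genes were called (EPHA3 and SEMA3E higher, EFNB3 lower), that is 2 higher and 1 lower, all 3 by at least 2-fold, and 1 partner, beside 407 of all genes (4.62% of the guidance genes, against 1.94%); SINHCAF was -0.84, short of the threshold.

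Signs turned in 6 of the genes named with full values, none of them called with all libraries. Signs also turned in genes named otherwise. Leaving out 1 library, SEMA3F ranged from -1.37 to 0.42, SLIT3 from -2.46 to 0.038 and NTN5 from -0.46 to 0.21. EPHA8 was 1.76 with the replicate block, 1.42 with limma and -0.80 to 3.12 leaving out 1 library, and SLIT1 was 0.65, 0.44 and -0.80 to 1.66. SEMA3G was 0.10 with the block and -1.42 to 1.16 leaving out 1 library. NTN1 stayed near 0, at 0.0017 with no filter, 0.0047 with at least 10 counts, 0.0029 with the block, 0.014 with limma and -0.12 to 0.052 leaving out 1 library. SLIT2 and UNC5B ranged from -0.13 to 0.023 and from -0.53 to 0.17. Counts under about 100 limit EFNA2, PLXNB3, SEMA4A, NTN3 and NTNG1.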
